A study of Mus musculus with 2 samples.

Results

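The heat shock and chaperone genes described here are Hspa1a, Hspa1b, Hspa8, Dnajb1, Hsph1, Hsp90aa1, Hspa5 and Ubb, which are 8 of the 32285 genes counted, taken by symbol. They were chosen by earlier results of these data, the expression ratios of Hspa1a, Hspa1b and Ubb between the 2 libraries, so those differences are given as descriptions. The study sequenced RNA and surface antibody tags of single cells from mouse ankle synovium, the lining of the joint, in 2 libraries. The day 7 library came from bone marrow chimeras that had received 200 µL of clodronate liposomes, which kill phagocytes that take them up, by retro-orbital injection 7 days earlier. The steady-state library came from untreated chimeras of the same kind. In both, CD45.1 B6 marrow had been given to CD45.2 B6 hosts whose ankles were shielded from irradiation, so the joint kept host cells. Live CD45+CD11b+ cells were sorted that were negative for surface CD177, CD64, Ly6C, Ly6G, SiglecF and MHC class II. The number of animals behind each library is not given in the sources used here, and with 1 library per group the library and the treatment cannot be told apart.

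Hspa1a and Hspa1b encode the inducible cytosolic Hsp70, which binds unfolded proteins and is switched on by heat shock factor 1 when proteins misfold. Hspa8 encodes the constitutive Hsp70, Dnajb1 an Hsp40 that stimulates Hsp70, Hsph1 a nucleotide exchange factor of Hsp70, and Hsp90aa1 an Hsp90 that folds kinases and receptors. Hspa5 encodes BiP, the Hsp70 of the endoplasmic reticulum (ER) and a classical target of the unfolded protein response, and Ubb a polyubiquitin precursor. Warming and enzymatic digestion of tissue are known to raise several of these transcripts together with immediate early genes.

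Hspa1a and Hspa1b are neighbouring, near-identical copies on mouse chromosome 17, and their promoters, with those of Hsph1 and Hspa5, are shown because these 4 genes hold the stress elements searched for and moved in different ways. Each sequence is RefSeq's window (GRCm38.p6) from 250 bases before to 50 bases after the start, 5′ to 3′ on the gene's strand, with heat shock elements (GAANNTTC or TTCNNGAA) or, in Hspa5, the ER stress element (CCAAT and CCACG with a spacer) in capitals.
Hspa1a (chr17:34972107-34972406, minus strand): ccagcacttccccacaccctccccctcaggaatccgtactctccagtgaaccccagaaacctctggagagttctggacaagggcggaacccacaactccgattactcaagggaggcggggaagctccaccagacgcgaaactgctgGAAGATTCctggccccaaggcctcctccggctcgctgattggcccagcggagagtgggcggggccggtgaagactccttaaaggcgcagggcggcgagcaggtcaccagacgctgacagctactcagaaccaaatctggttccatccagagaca
Hspa1b (chr17:34959189-34959488, minus strand): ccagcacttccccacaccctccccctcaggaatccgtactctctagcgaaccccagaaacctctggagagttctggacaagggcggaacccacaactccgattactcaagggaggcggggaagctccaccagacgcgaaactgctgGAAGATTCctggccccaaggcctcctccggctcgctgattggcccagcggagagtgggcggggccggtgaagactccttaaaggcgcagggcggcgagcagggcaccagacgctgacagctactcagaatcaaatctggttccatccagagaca
Hsph1 (chr5:149636287-149636586, minus strand): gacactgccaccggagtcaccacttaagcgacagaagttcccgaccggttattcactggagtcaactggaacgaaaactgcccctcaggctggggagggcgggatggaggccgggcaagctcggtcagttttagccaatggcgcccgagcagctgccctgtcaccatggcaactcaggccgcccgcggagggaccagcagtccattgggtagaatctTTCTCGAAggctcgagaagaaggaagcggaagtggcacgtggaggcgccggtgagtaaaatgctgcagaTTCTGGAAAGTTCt
Hspa5 (chr2:34771840-34772139, plus strand): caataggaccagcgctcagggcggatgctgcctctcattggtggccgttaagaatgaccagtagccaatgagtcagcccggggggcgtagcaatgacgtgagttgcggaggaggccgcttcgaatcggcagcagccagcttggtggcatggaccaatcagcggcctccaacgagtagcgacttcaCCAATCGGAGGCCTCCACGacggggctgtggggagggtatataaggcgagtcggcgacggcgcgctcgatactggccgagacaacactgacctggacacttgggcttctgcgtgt
The Hspa1a and Hspa1b windows differed at 4 of 300 bases (98.7% identity). Counted from 1 at the 5′ end, with the Hspa1a base first, these were C44T, T47C, T249G and C276T. Both carried GAANNTTC at bases 147 to 154, a match that 7.86% of 32851 promoter windows held on either strand. The Hsph1 window held TTCNNGAA at bases 218 to 225, a match in 8.52% of windows, and the longer 3-unit heat shock element on the opposite strand at bases 287 to 299, a match in 0.603%. That longer match overlaps a shorter one of each kind. In Hspa5 the ER stress element lay at bases 186 to 204, and 0.119% of windows held one. Neither the Dnajb1 nor the Ubb windows held any of these letters, and matches are descriptions of sequence only. No windows for Hspa8 and Hsp90aa1 were used here.

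After filtering, 1200 day 7 and 1630 steady-state cells remained, with 10824984 and 17060676 UMIs (unique molecular identifiers, 1 per captured RNA molecule) and medians of 8309 and 9558.5 UMIs per cell. More than 10% mitochondrial UMIs removed 63 of 1277 day 7 barcodes (4.93%), against 271 of 1912 steady-state barcodes (14.2%), and no cell barcode was shared between the libraries. Cells were put into classes, called gates, by the summed UMIs of marker lists that held no heat shock gene. The macrophage gate (C1qa, C1qb, C1qc) held 147 day 7 and 815 steady-state cells and was also high in Vsig4 and Lyve1. The classical monocyte gate (Ly6c2, Ccr2 and others) held 531 and 166 cells, and the Ly6C-low monocyte gate (Ace, Treml4 and others) 71 and 86 cells. Cells high in both monocyte lists numbered 88 at day 7 and 25 at steady state, and class II-high cells without C1q 116 and 251. Only these 5 gates had at least 20 cells in each library. In the smaller gates were C1q-positive class II-high cells (11 and 110), granulocyte-lineage cells (160 and 7) and fibroblast-like cells (13 and 62). Ly6c2 was at 1699 CPM (UMIs per 1000000 UMIs) in day 7 classical monocytes and 1082 CPM in steady-state ones although the sort excluded surface Ly6C, and Ptprc, which encodes CD45, was at 0 and 4.89 CPM in the fibroblast-like gate.

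Summed over Hspa1a and Hspa1b, the inducible Hsp70 transcripts were lower in day 7 monocytes and higher in day 7 macrophages than at steady state. In macrophages the sum was 309 CPM at day 7 (310 UMIs, exact Poisson 95% interval 276 to 346) and 174 CPM at steady state (1531 UMIs, 166 to 183), a 1.78-fold difference. In classical monocytes it was 10.98 CPM at day 7 (56 UMIs, 8.29 to 14.3) and 36.1 CPM at steady state (58 UMIs, 27.4 to 46.6), or 3.29-fold lower. In Ly6C-low monocytes it was 7.22 CPM at day 7 (3 UMIs, 1.49 to 21.1) and 122 CPM at steady state (74 UMIs, 96.0 to 154). None of these 3 pairs of intervals overlapped. The log2 ratios of day 7 over steady state were 0.83 (95% interval 0.647 to 1.005) in macrophages, -1.72 (-2.27 to -1.16) in classical monocytes and -4.08 (-6.39 to -2.48) in Ly6C-low monocytes. All intervals here cover counting error only, not the spread between animals or libraries, so no ratio in this design has a replicate check or a test.

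Cells high in both monocyte lists had 6.33 CPM at day 7 (4 UMIs) and 105 CPM at steady state (26 UMIs). Class II-high cells had 93.3 CPM at day 7 and 156 CPM at steady state, a log2 ratio of -0.74 (-1.07 to -0.43). That gate also took cells that passed a monocyte list, and its mix differed between the libraries. Ly6c2 in it was at 533 CPM at day 7 and 158 CPM at steady state. The C1q-positive class II-high cells had 234 CPM at day 7 (25 UMIs in 11 cells) and 205 CPM at steady state, with overlapping intervals. Fibroblast-like cells had 130 CPM at day 7 (9 UMIs) and 169 CPM at steady state, and their intervals overlapped as well. Granulocyte-lineage cells had 3 UMIs among 160 cells at day 7 (1.47 CPM) and 1 UMI among 7 cells at steady state. Among the 5 gates with at least 20 cells in each library, the day 7 order was macrophages, then class II-high cells, then the 3 monocyte gates, whose intervals overlapped each other. Steady-state macrophages were 1.12-fold above class II-high cells, 1.42-fold above Ly6C-low monocytes and 4.83-fold above classical monocytes, whereas day 7 macrophages were 3.32-fold, 42.8-fold and 28.2-fold above the same gates.

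The separate copies went the same way, within the limit that reads matching both near-identical genes cannot be assigned with certainty and the counting of such reads is not given in the sources used here. Hspa1b was 147 CPM at day 7 and 59.1 CPM at steady state in macrophages, a log2 ratio of 1.31 (1.04 to 1.58), and Hspa1a was 163 and 115 CPM, a log2 ratio of 0.50 (0.25 to 0.74). Hspa1a made up 52.6% of the pair's UMIs in day 7 macrophages (Clopper-Pearson 95% interval 46.9 to 58.3) and 66.1% in steady-state macrophages (63.7 to 68.5). In classical monocytes Hspa1a made up 55.4% at day 7 and 55.2% at steady state, so the 2 copies had log2 ratios of -1.71 for Hspa1a and -1.72 for Hspa1b. In Ly6C-low monocytes Hspa1a had 2 UMIs at day 7 and 36 at steady state, and Hspa1b 1 and 38.

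**Figure D1:**
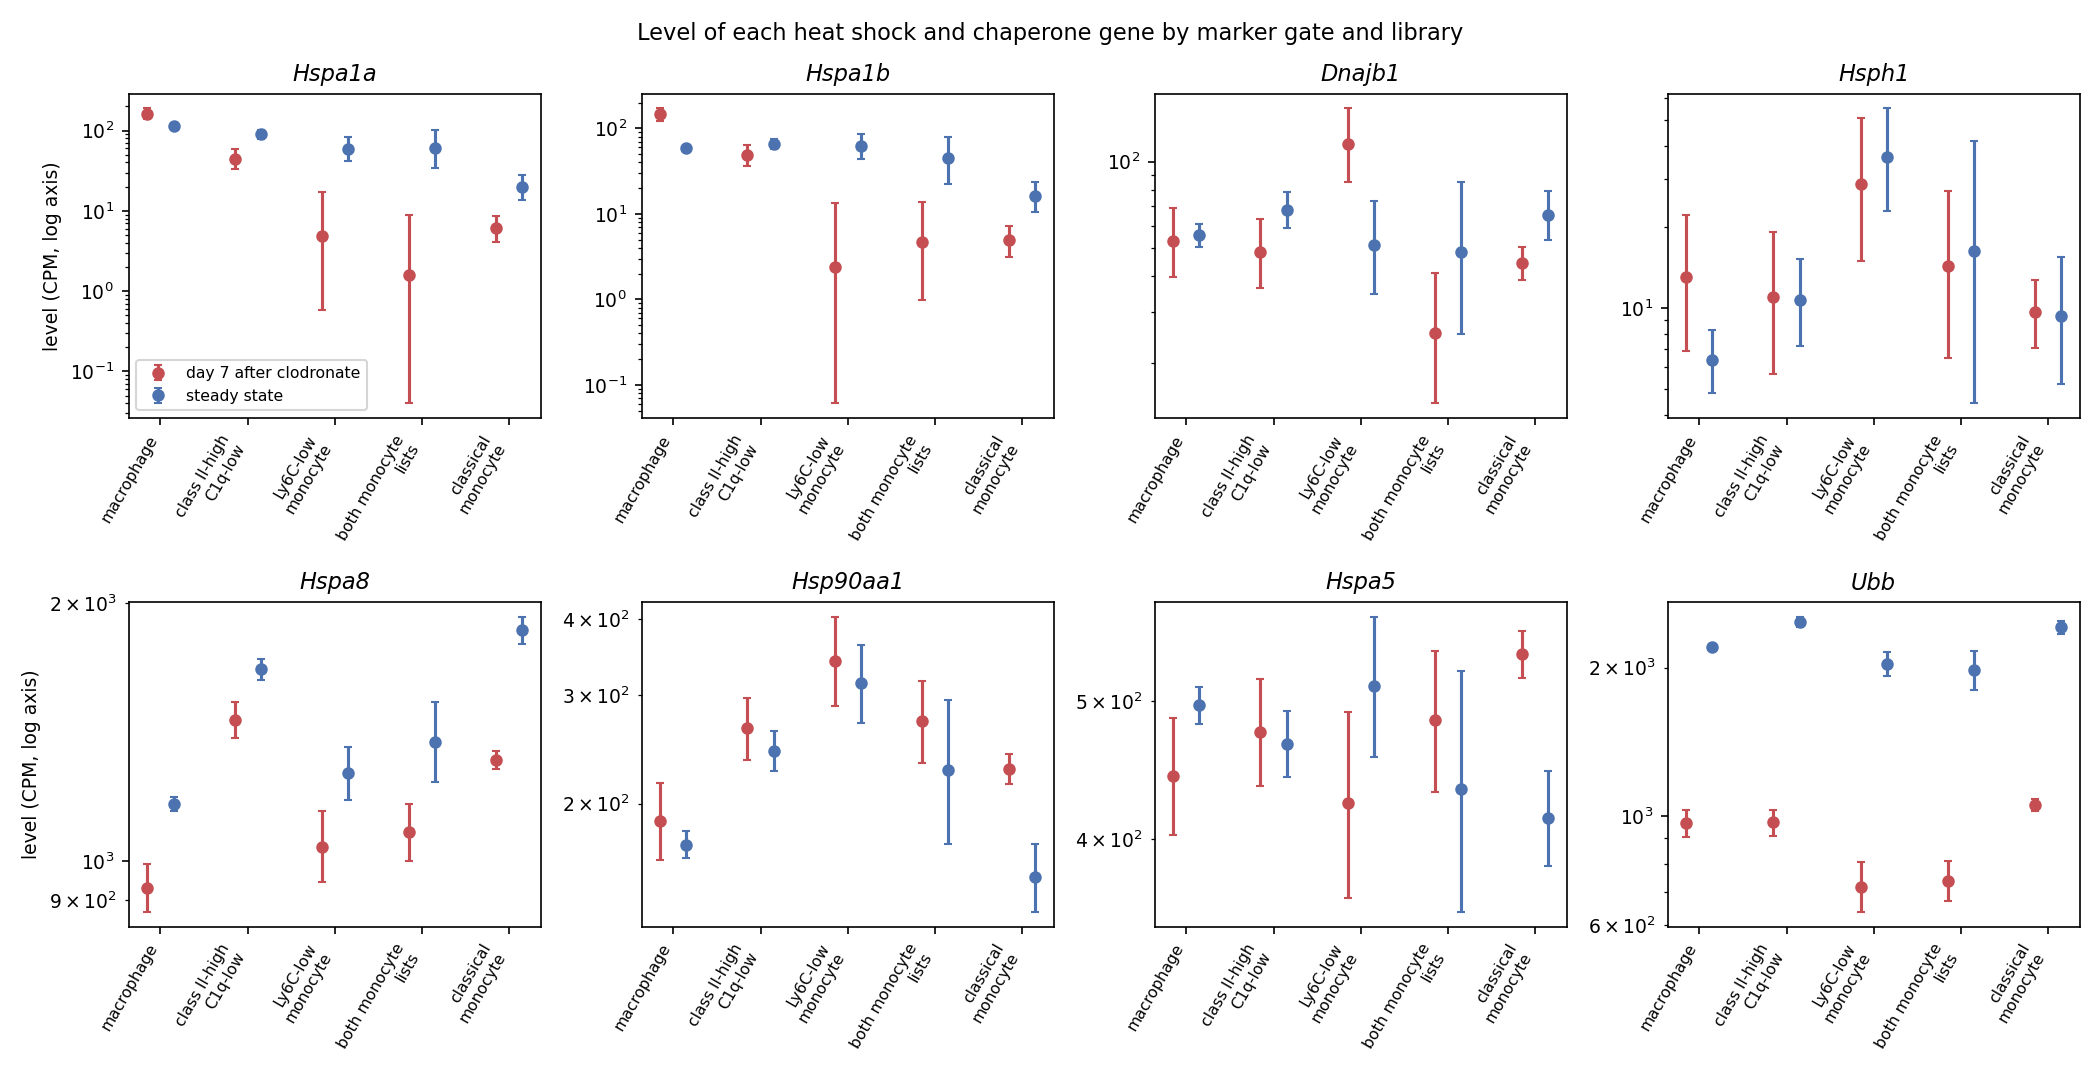
Level of each gene in CPM (log axes that differ between panels) in the 5 gates with at least 20 cells per library, day 7 left of steady state in each pair, with exact Poisson 95% intervals. Hspa1a and Hspa1b were higher at day 7 in the macrophage gate and lower in the monocyte gates, and Ubb was lower at day 7 in 5 of 5 gates.

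Cells with at least 1 UMI of the pair made up 58.5% of day 7 macrophages (86 of 147) and 66.5% of steady-state macrophages (542 of 815). Day 7 macrophages were shallower, with a median of 6624 UMIs against 10121 at steady state, and that order is opposite to that of the CPM. With every cell thinned to 2000 UMIs, the share was 37.1% at day 7 (28.6 to 46.2, 124 cells) and 27.3% at steady state (24.2 to 30.6, 761 cells), with intervals that overlapped. In classical monocytes the share was 8.29% at day 7 and 16.3% at steady state, and 1.92% (0.881 to 3.61) and 5.0% (2.18 to 9.61) after thinning, with intervals that overlapped. In Ly6C-low monocytes it was 4.23% at day 7 and 26.7% at steady state, and 1.52% (0.0384 to 8.16) and 16.0% (8.55 to 26.3) after thinning. No cell type present should lack these genes altogether, so 2 scales of free RNA were used. Day 7 granulocyte-lineage cells, at a median of 12335 UMIs, had a share of 1.88%, and 2.54% (0.527 to 7.25) after thinning. The thinned shares of both day 7 monocyte gates, from few UMIs, could not be told from theirs. In full counts day 7 classical monocytes stood higher, at 10.98 CPM (56 UMIs) and 8.29% of cells, against 1.47 CPM (3 UMIs) and 1.88% in granulocyte-lineage cells. Day 7 Ly6C-low monocytes had 7.22 CPM from 3 UMIs. The C1q genes stood in classical monocytes at 0.114% of their macrophage level at day 7 and 0.564% at steady state. The same fraction of the macrophage level of the pair would be 0.352 and 0.983 CPM, against the 10.98 and 36.1 CPM measured. Ly6C-low monocytes had C1q at 0.371% and 0.840% of the macrophage level. The pair at that fraction would be 1.15 and 1.46 CPM, against 7.22 and 122 CPM measured. Cells at or above the C1q limit were kept out of the monocyte gates, so C1q there was capped by the gate rule. The C1q scale may therefore be too low, and it cannot decide how much of the pair was free RNA.

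The pair's UMIs in day 7 macrophages were spread over many cells, with a larger difference from steady state among the highest cells. Of 147 day 7 macrophages, 18 held 50% of the pair's UMIs and the highest cell held 5.16%, while of 815 steady-state macrophages 120 held 50% and the highest cell held 1.18%. Cells with at least 5 UMIs of the pair were 23 of 147 at day 7 (15.6%) and 97 of 815 at steady state (11.9%). Those with at least 3 UMIs were 27.2% and 26.7%, and those with at least 10 UMIs 6 of 147 (4.08%) and 11 of 815 (1.35%). The median cell had 148 CPM at day 7 and 106 CPM at steady state, and the 90th percentile was 933 and 469 CPM. Without the highest 5% of cells in each library the log2 ratio was 0.89 (0.69 to 1.08), and with equal weight per cell it was 0.62.

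The pair's UMIs in monocytes came from few cells in both libraries. At steady state 27 classical monocytes held all 58 UMIs, 6 of them held 50% and the top 10 held 70.7%. At day 7, 44 classical monocytes held the 56 UMIs, 38 of them with a single UMI. Cells with at least 3 UMIs numbered 2 of 531 at day 7 (0.377%) and 8 of 166 at steady state (4.82%). Leaving out the highest 5% of cells in each library gave a log2 ratio of -2.13 (-3.09 to -1.20) from 18 day 7 and 25 steady-state UMIs. Cells were ranked by the pair itself, and a smaller share was positive at day 7 (44 of 531 against 27 of 166). The trim therefore took a larger part of the day 7 UMIs, and it cannot show whether the lower day 7 level rested on few cells. In Ly6C-low monocytes the 3 day 7 UMIs were in 3 cells, whereas at steady state 23 cells held 74 UMIs, 4 of them held 50% and the highest cell held 20.3%. Leaving out the highest 5% of cells removed all 3 positive day 7 cells, so the 0 UMIs left at day 7 were fixed in advance. At steady state 33 UMIs were left, and the trim cannot show whether this difference rested on few cells. Class II-high cells were the most concentrated, since 3 of 116 day 7 cells held 50% of the 102 UMIs. Without the highest 5% of cells the log2 ratio was -2.25 (-2.93 to -1.64) in place of -0.74. There too the cells were ranked by the pair itself and a smaller share was positive at day 7. The trimmed ratio therefore cannot show whether the lower day 7 level rested on few cells.

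**Figure D2:**
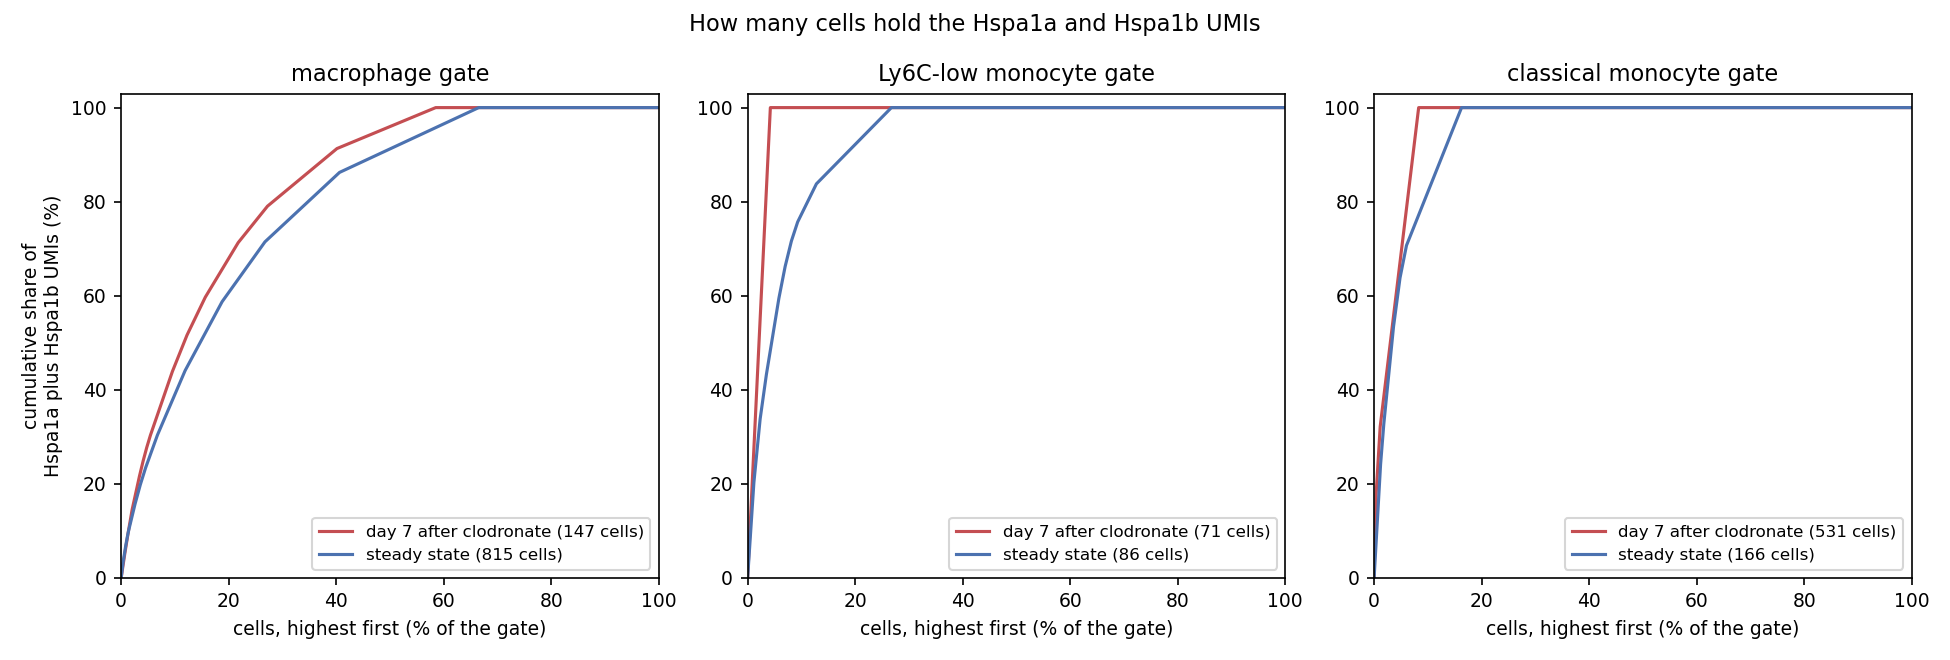
Cumulative share of Hspa1a plus Hspa1b UMIs (percent) over cells ranked from the highest count, as a percent of each gate, in red for day 7 and blue for steady state. The curves of the macrophage gate climb slowly, with 58.5% of day 7 and 66.5% of steady-state cells positive, and those of the monocyte gates reach 100% within 8.29% and 16.3% (classical) or 4.23% and 26.7% (Ly6C-low) of cells.

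Antibody counts for CD45.2 and CD45.1 marked some macrophages as host-class or donor-class, while 69 of 147 at day 7 (46.9%) and 140 of 815 at steady state (17.2%) were in neither class. Host-class macrophages had 359 CPM of the pair at day 7 (73 cells) and 182 CPM at steady state (612 cells), a log2 ratio of 0.98 (0.77 to 1.18), so the difference was as large among host-class cells as in the whole gate. Donor-class macrophages had 394 CPM at day 7 (16 UMIs in 5 cells) and 196 CPM at steady state (63 cells). Those in neither class had 196 CPM at day 7 (62 UMIs, 151 to 252) and 113 CPM at steady state (128 UMIs, 94.5 to 135), at median depths of 3865 and 6920 UMIs. Among steady-state macrophages, Hspa1a made up 66.7% (64.0 to 69.3) of the pair in host-class and 50% (41.0 to 59.0) in donor-class cells. At day 7 no such difference was seen, with 55.2% (48.5 to 61.7) in host-class and 56.25% (29.9 to 80.2, 16 UMIs) in donor-class cells.

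Among the partners of inducible Hsp70, Hspa8 was lower at day 7 in 5 of 5 gates. It stood at 932 CPM at day 7 and 1167 CPM at steady state in macrophages, at 1313 and 1862 CPM in classical monocytes, and at 1040 and 1266 CPM in Ly6C-low monocytes. The log2 ratios were between -0.50 and -0.20, with intervals below 0. Dnajb1 did not follow the pair in macrophages, with 52.9 CPM at day 7 and 55.5 CPM at steady state (log2 ratio -0.07, -0.51 to 0.34). In classical monocytes it was 44.3 CPM at day 7 and 65.3 CPM at steady state, a log2 ratio of -0.56 (-0.90 to -0.21). In Ly6C-low monocytes Dnajb1 went the other way, with 116 CPM at day 7 and 51.2 CPM at steady state, but 1 day 7 cell held 28 of the 48 UMIs. That cell had 2742 UMIs in all and none of Hspa1a, Hspa1b or Hsph1, and without it the log2 ratio was -0.08 (-0.97 to 0.78).

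Hsph1 was sparse, with 13 day 7 and 56 steady-state UMIs in macrophages (12.97 and 6.37 CPM, log2 ratio 1.03, 0.03 to 1.91). It stood at 9.61 and 9.33 CPM in classical monocytes, and at 28.9 and 36.4 CPM in Ly6C-low monocytes, the highest of the 5 gates in both libraries. Hsp90aa1 was higher at day 7 in classical monocytes, at 228 CPM against 152 CPM at steady state (log2 ratio 0.59, 0.39 to 0.79). In the other 4 gates its ratios were positive with intervals that included 0, as in macrophages with 188 CPM at day 7 and 171 CPM at steady state. Hspa8 and Dnajb1 thus had ratios below 0, and Hsp90aa1 above 0, in both macrophages and classical monocytes.

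Hspa5, the ER member, was higher in day 7 classical monocytes, at 539 CPM against 414 CPM at steady state (log2 ratio 0.38, 0.26 to 0.51). It was slightly lower in day 7 macrophages, at 443 CPM against 497 CPM (log2 ratio -0.16, -0.31 to -0.02). Day 7 Ly6C-low monocytes had 424 CPM and steady-state ones 512 CPM, a log2 ratio of -0.27 (-0.549 to -0.002). The direction was thus opposite to that of the inducible pair in both macrophages and classical monocytes.

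Ubb was lower at day 7 in each of the 5 gates. In macrophages it was 967 CPM at day 7 and 2204 CPM at steady state, in classical monocytes 1053 and 2415 CPM, and in Ly6C-low monocytes 718 and 2038 CPM. Over the 5 gates it was between 2.28-fold and 2.84-fold lower, with log2 ratios of -1.19 (-1.28 to -1.10) in macrophages, -1.20 (-1.26 to -1.14) in classical monocytes and -1.51 (-1.69 to -1.32) in Ly6C-low monocytes. The difference did not rest on few cells: with cells thinned to 2000 UMIs, Ubb was detected in 81.5% of day 7 and 95.9% of steady-state macrophages. The same shares were 82.7% and 96.9% in classical monocytes and 78.8% and 92.0% in Ly6C-low monocytes. Granulocyte-lineage cells had 774 CPM at day 7 and 2061 CPM at steady state, where there were 7 cells. Whether treatment, handling or library preparation goes with this difference cannot be told apart.

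**Figure D3:**
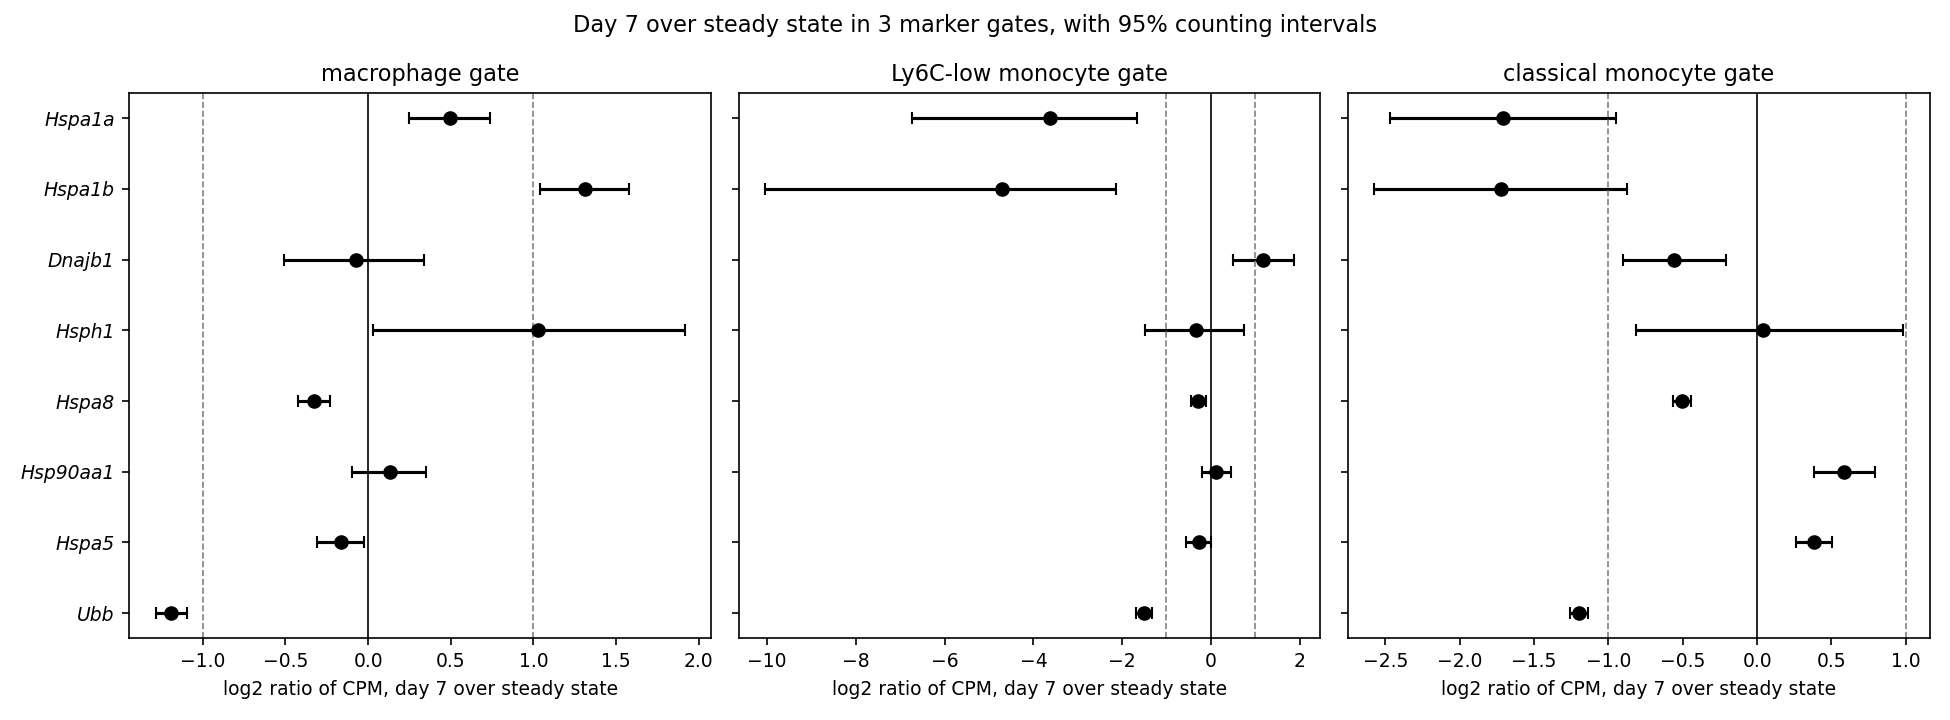
Log2 ratio of CPM, day 7 over steady state, for the 8 genes in 3 gates (x axes differ), with 95% counting intervals and dashed lines at 2-fold. Hspa1a and Hspa1b lie right of 0 in macrophages and left of 0 in both monocyte gates, Ubb lies near -1.2 to -1.5 in each, and Hspa8, Hsp90aa1 and Hspa5 lie within 0.6 of 0.

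Against all genes with at least 20 CPM in either library, few genes differed 2-fold in macrophages: 1.32% were at least 2-fold higher and 1.17% at least 2-fold lower at day 7. Of the 7 members at that level, 1 was 2-fold higher (Hspa1b) and 1 was 2-fold lower (Ubb). In classical monocytes 2.73% of genes were 2-fold higher and 1.56% lower at day 7, and of 5 members at that level none was higher and 1 was lower (Ubb). Hspa1a and Hspa1b were below 20 CPM in both libraries there (Hspa1a 19.9 CPM at steady state), so their lower ratios were not counted. In Ly6C-low monocytes 7.94% of genes were higher and 6.63% lower, and of 8 members 1 was higher (Dnajb1, by the 1 cell described) and 3 were lower (Hspa1a, Hspa1b, Ubb). Cells high in both monocyte lists had 9.71% of genes higher and 9.06% lower, and of 7 members 3 were 2-fold lower. Class II-high cells had 4.19% higher and 4.09% lower, and of 7 members 2 were lower. Over all cells 6.51% of genes were 2-fold higher and 10.6% lower at day 7, and of 7 members none was higher and 3 were lower (Hspa1a, Hspa1b and Ubb). Since the members were chosen for these contrasts, the counts are descriptions. The median log2 ratio of the members was -0.07 in macrophages, against 0.12 for all genes compared, -0.50 against 0.13 in classical monocytes, and -0.31 against 0.06 in Ly6C-low monocytes. A lower ratio than that of Ubb was seen for 0.607% of genes in macrophages and 0.985% in classical monocytes, and a lower one than that of Hspa1b for 99.8% of genes in macrophages.

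Related gene lists show whether the wider chaperone network moved with the members. Of 30 further genes, mainly cytosolic chaperones and heat shock factors, 23 were compared in macrophages, with 10 higher, 13 lower, none past 2-fold and a median log2 ratio of -0.09. Dnajb4, an Hsp40, was at 60.9 CPM at day 7 and 38.5 CPM at steady state (log2 ratio 0.66). Bag3, an Hsp70 co-chaperone in autophagy, was at 73.8 and 50.2 CPM (0.56), and Stip1, which links Hsp70 to Hsp90, at 53.9 and 36.8 CPM (0.55). Lowest were Fkbp4, an Hsp90 co-chaperone, at 35.9 and 52.0 CPM (-0.53), Hspa4l, an Hsp110, at 42.9 and 60.4 CPM (-0.49), and Bag1, an Hsp70 exchange factor, at 184 and 251 CPM (-0.45). In classical monocytes 21 of the 30 were compared, with 10 higher, 11 lower, none past 2-fold and a median of -0.00. The ends of that list were Hspa13 (0.77), Bag3 (0.61) and Chordc1 (0.44), and Bag1 (-0.49), Dnaja1 (-0.44) and Hspa4l (-0.36). Ly6C-low monocytes had 13 higher and 9 lower of 22 compared, with 1 past 2-fold each way. Of all genes, 7.94% were past 2-fold higher and 6.63% lower in that gate. The same shares were 1.32% and 1.17% in macrophages, and 2.73% and 1.56% in classical monocytes.

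Among genes of the ER and its unfolded protein response, 12 of 17 were higher and 5 lower at day 7 in classical monocytes, with a median log2 ratio of 0.30 against 0.13 for all genes compared. Creld2 was at 27.4 CPM at day 7 and 13.7 CPM at steady state (2.01-fold higher, the only one past 2-fold), Calr, the ER chaperone calreticulin, at 285 and 150 CPM (1.90-fold) and the stress transcription factor Atf4 at 322 and 170 CPM (1.90-fold). Of all genes, 2.73% were past 2-fold higher in that gate. Dnajb11 (-0.25), Pdia6 (-0.23) and Sdf2l1 (-0.15) were lowest. In macrophages 6 of 16 were higher and 10 lower, with a median of -0.15 against 0.12 for all genes compared; the difference between the gates was not tested. Sdf2l1 was at 27.9 CPM at day 7 and 61.6 CPM at steady state (2.20-fold lower), Creld2 at 17.0 and 31.3 CPM and Pdia6, a disulfide isomerase, at 75.8 and 119 CPM. Atf4 (252 CPM at day 7 and 156 CPM at steady state), Xbp1 (170 and 113 CPM), a transcription factor of the unfolded protein response, and Dnajb9 (72.8 and 51.8 CPM) were highest.

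The list of mitochondrial chaperones, which also holds the protease genes Clpp and Lonp1, had 4 higher and 2 lower of 6 compared in macrophages. There Hspd1 was highest at 0.18 and Clpp lowest at -0.71. In classical monocytes 3 were higher and 2 lower of 5. Of 8 subunits of the TRiC chaperonin, which folds actin and tubulin, 2 were higher and 6 lower in macrophages (Cct6a 0.23, Cct4 -0.41). In classical monocytes 6 were higher and 2 lower (Cct6a 0.60, Cct4 -0.06). Of 14 ubiquitin and proteasome genes, 3 were higher and 11 lower in macrophages (Psmd1 0.29, Psmc4 -0.64). In classical monocytes 7 were higher and 7 lower (Psmd1 0.86, Psmd4 -0.42). No gene of these 3 lists passed 2-fold in either cell type. Of all genes, 1.32% were past 2-fold higher and 1.17% lower in macrophages, and 2.73% and 1.56% in classical monocytes. Past 2-fold in Ly6C-low monocytes (7.94% of all genes higher, 6.63% lower) were 1 mitochondrial gene (lower) and 3 ubiquitin and proteasome genes (2 higher, 1 lower). In cells high in both monocyte lists (9.71% higher, 9.06% lower), 3 mitochondrial and 2 TRiC genes were higher and 1 ubiquitin or proteasome gene lower.

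Immediate early genes, which respond within minutes to stimulation and to tissue dissociation, were mostly lower at day 7 in both monocyte gates, as the inducible pair was, and went both ways in macrophages. In classical monocytes 16 of 17 were lower at day 7 and 6 were past 2-fold, with a median log2 ratio of -0.89. Over all genes compared there, 1.56% were past 2-fold lower and 2.73% higher, with a median of 0.13. Socs3 was at 24.9 CPM at day 7 and 204 CPM at steady state (8.19-fold lower), Jun at 163 and 649 CPM (3.98-fold) and Klf2 at 263 and 821 CPM (3.12-fold), while Ier3 was the only one higher (0.32). In Ly6C-low monocytes 16 of 17 were lower, with a median of -0.85 against 0.06 for all genes compared. There 6 were past 2-fold lower and 1 higher, against 6.63% and 7.94% of all genes. In macrophages 8 were higher and 9 lower, none past 2-fold, with a median of -0.04. Of all genes there 1.32% were past 2-fold higher and 1.17% lower. Zfp36 was at 727 CPM at day 7 and 525 CPM at steady state (0.47) and Klf6 at 1261 and 920 CPM (0.45), while Fos was at 891 and 1225 CPM (-0.46). Other values also moved with the gates. The 12 granulocyte genes summed to 830 CPM in day 7 and 164 CPM in steady-state classical monocytes, and to 172 and 18.5 CPM in macrophages. In Ly6C-low monocytes the 3 natural killer cell genes summed to 91.5 CPM at day 7 and were all at 0 at steady state, and the 4 mast cell and basophil genes to 43.3 and 0 CPM. Their part in the heat shock values was not tested.

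**Figure D4:**
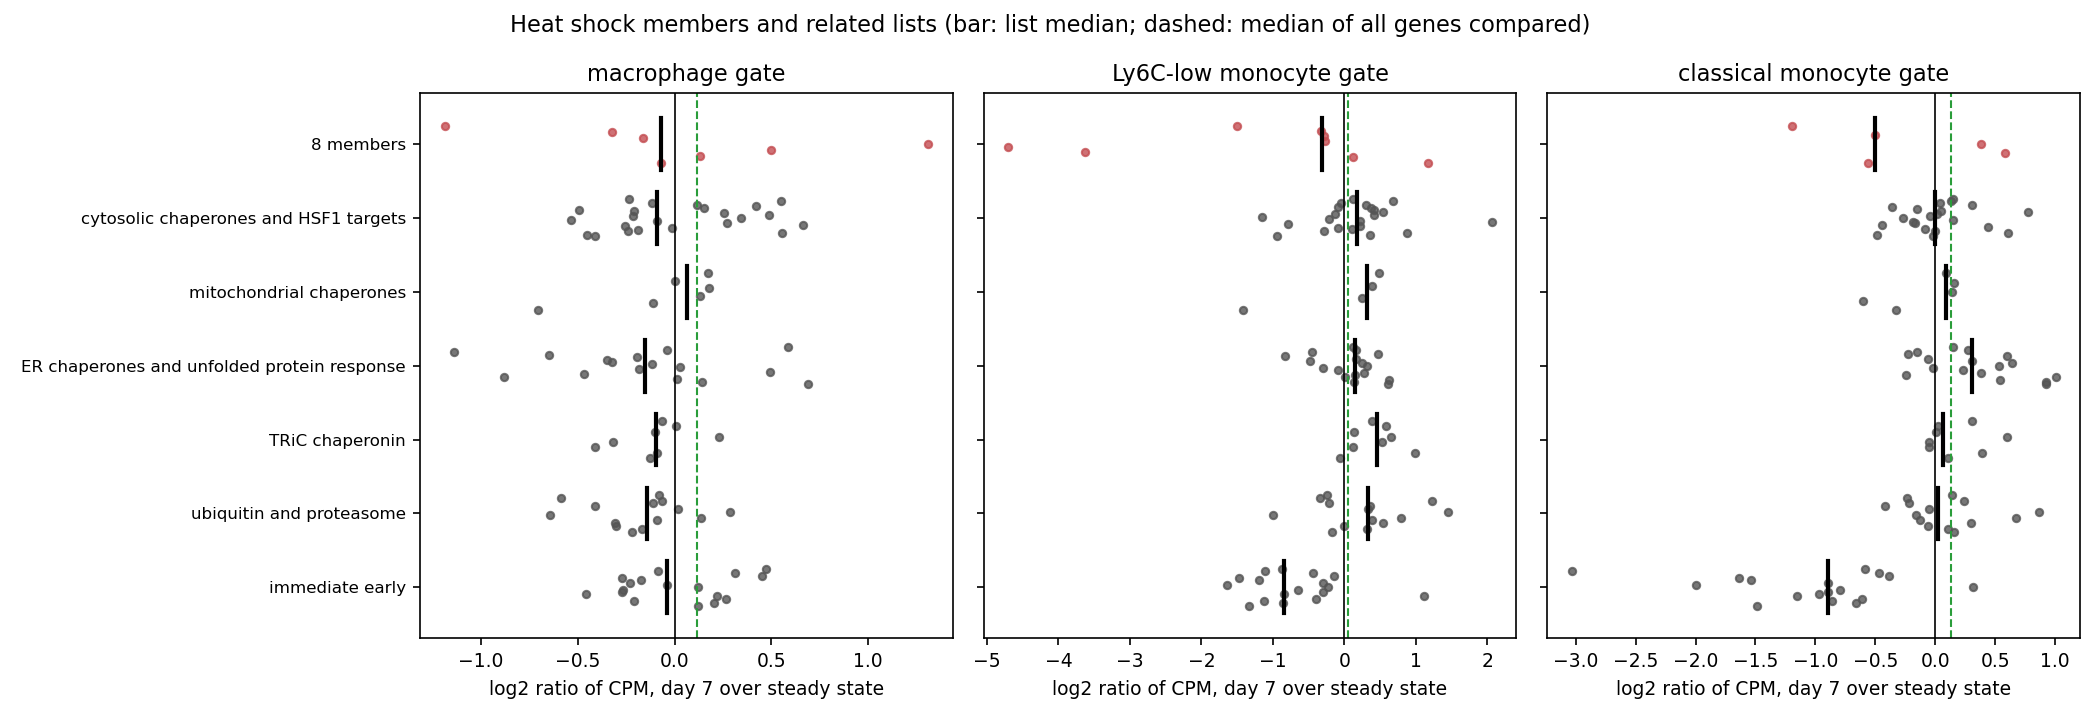
Log2 ratio of CPM, day 7 over steady state, of each compared gene in the 8 members (red) and 6 related lists (grey) for 3 gates (x axes differ); bars mark list medians and the dashed green line the median of all genes compared. The immediate early list lies left of 0 in both monocyte gates, with medians of -0.89 and -0.85, and around 0 in macrophages.

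The mitochondrial share of a cell's UMIs, often read as a sign of damage, varied together with some of the genes. Its median was 2.40% in day 7 and 2.09% in steady-state macrophages, and 2.06% and 1.51% in classical monocytes. Day 7 macrophages with up to 2% mitochondrial UMIs had 469 CPM of Hspa1a plus Hspa1b (57 cells), those with 2 to 4% had 222 CPM (61 cells) and those with 4 to 6% had 150 CPM (16 cells). At steady state the same bins had 208 CPM (367 cells), 149 CPM (353 cells) and 120 CPM (54 cells). The day 7 level was above the steady-state level in each of these 3 bins, with intervals that overlapped in the 4 to 6% bin. Above 6% the bins held few cells, and the day 7 bin of 8 to 10% had 0 UMIs in 4 cells. Hspa1b carried most of the day 7 gradient, at 261, 82.6 and 11.5 CPM over the first 3 bins, against 209, 140 and 138 CPM for Hspa1a. The 11.5 CPM of Hspa1b rested on at most 3 UMIs. Over single macrophages Spearman's rho between the pair's CPM and the mitochondrial share was -0.28 at day 7 (147 cells) and -0.12 at steady state (815 cells). The cells of a library share its depth and preparation, so these are descriptions.

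Ubb at steady state was lower in each bin than in the one before, with 2386, 2127, 1660, 1146 and 744 CPM over the 5 bins up to 10% and 574 CPM above that limit. At day 7 it was 1046, 978, 703, 697 and 334 CPM, below steady state in 5 of 5 bins, and rho was -0.10 at day 7 and -0.30 at steady state. Hspa8 at steady state was 1194 CPM in the lowest bin and 541 CPM above 10%, while Hspa5 stayed between 486 and 564 CPM. In classical monocytes the pair did not follow the macrophage pattern: at day 7 it was 12.8 CPM up to 2% and 9.97 CPM at 2 to 4%, and at steady state 28.3 CPM (39 UMIs in 137 cells) and 87.6 CPM (19 UMIs in 26 cells).

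Depth was lower in cells of higher mitochondrial share, with a rho of -0.14 at day 7 and -0.13 at steady state among macrophages, so the bins were split at each library's median depth of 6624 or 10121 UMIs. Among the deeper day 7 macrophages the pair was 467, 222 and 108 CPM at up to 2%, 2 to 4% and 4 to 10% mitochondrial UMIs, and among the shallower ones 484, 223 and 139 CPM. In the shallower day 7 cells the fall was in Hspa1b, at 348, 77.1 and 41.7 CPM from 18, 9 and 3 UMIs. Hspa1a there was 135, 146 and 97.3 CPM. At steady state the deeper cells had 178, 136 and 87.2 CPM and the shallower cells 284, 184 and 158 CPM. Ubb at steady state was 2331, 2189 and 1786 CPM in deeper and 2527, 1960 and 1252 CPM in shallower cells. The lowest bin thus had the highest level at both depths in both libraries for the pair, and at steady state for Ubb. Depth still differed between bins of the shallower cells, with median UMIs of 1338.5, 5360 and 2948 at day 7 and 7609, 7653 and 3626 at steady state. With a mitochondrial limit of 5% the macrophage log2 ratio of the pair was 0.91 (0.72 to 1.08).

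**Figure D5:**
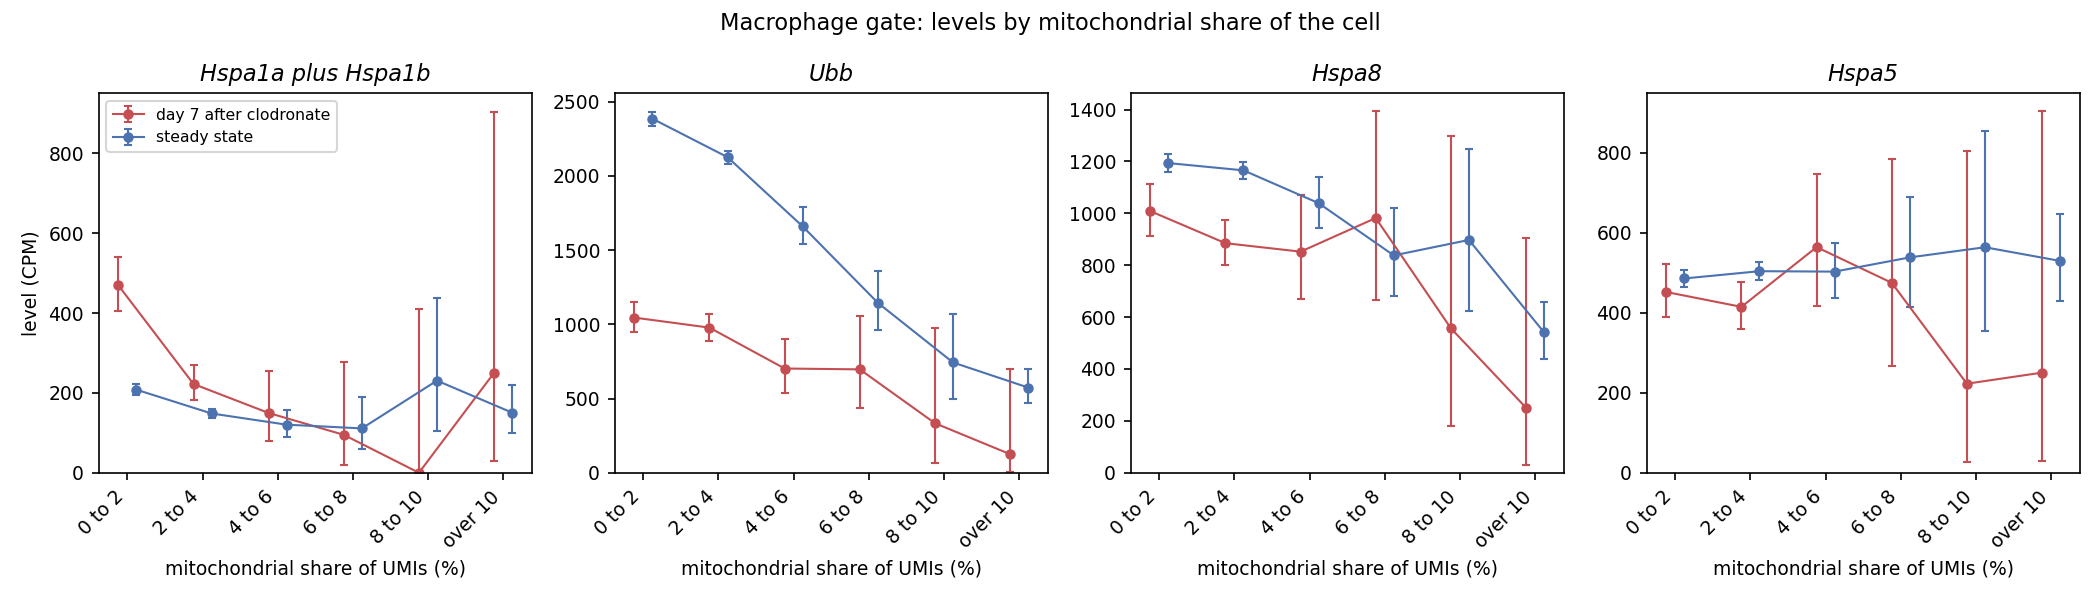
Level in CPM of Hspa1a plus Hspa1b, Ubb, Hspa8 and Hspa5 in macrophages by mitochondrial share of the cell's UMIs (percent), day 7 in red and steady state in blue, with exact Poisson 95% intervals. The pair was 469 CPM at day 7 and 208 CPM at steady state in the lowest bin, and Ubb was lower along the steady-state bins, 2386 CPM in the lowest and 574 CPM above 10%.

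Among macrophages thinned to 2000 UMIs, Hspa1a was detected in 33 and Hspa1b in 21 of 124 day 7 cells, and both in 8. At steady state the numbers were 157, 71 and 20 of 761 cells. Spearman's rho between any 2 members ranged from -0.12 to 0.18, and in counts this sparse such values are no finding. Day 7 macrophages with a UMI of the pair had 576 CPM of Hspa5 (46 cells) and those without had 340 CPM (78 cells). At steady state these were 555 CPM (208 cells) and 482 CPM (553 cells). Hsp90aa1 was 261 CPM in positive and 192 CPM in negative cells at day 7, and 243 and 144 CPM at steady state. Ubb in positive cells was 1.30-fold that of negative cells at day 7 and 1.02-fold at steady state. Jun was 457 CPM in positive and 577 CPM in negative day 7 cells, but 748 and 544 CPM at steady state, and Dusp1 was higher in positive cells at both times, at 1054 and 654 CPM at day 7 and 954 and 651 CPM at steady state. Dnajb1 rested on 2 and 10 UMIs in day 7 cells.

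Across 13 groups (gates with at least 20 cells in a library), the genes whose level was most like that of Hspa1a plus Hspa1b, by Pearson's r of log2(CPM + 10) among 5408 genes reaching 50 CPM in at least 1 group, were Cirbp (0.93), Nfkbia (0.92), Tspan17 (0.92), Arhgap5 (0.90) and Alg5 (0.90). Cirbp, a cold-inducible RNA-binding protein, was at 194 CPM in day 7 and 190 CPM in steady-state macrophages, and at 66.7 and 116 CPM in classical monocytes. Nfkbia, the inhibitor of NF-kappa-B, was at 975 and 1195 CPM in macrophages and at 272 and 401 CPM in classical monocytes. The other members were less like the pair, with r of 0.66 for Ubb, 0.50 for Hspa5, 0.34 for Hspa8, 0.18 for Dnajb1, 0.06 for Hsph1 and -0.36 for Hsp90aa1. The groups share 2 libraries and are not independent.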

How the data were processed

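The deposited matrices hold unnormalized UMI counts of each gene in each cell. The submitters' processing notes name Cell Ranger 6.1.2, Seurat 4.4.0 and the mm10 build, with no role for any of them. Cells under 500 UMIs, under 200 genes or over 10% mitochondrial UMIs were dropped, and 10 day 7 and 7 steady-state doublets called by Scrublet (scanpy 1.11.5) were taken out. A cell passed a gate at a summed marker level per 10000 UMIs of 10 (macrophage, classical monocyte), 14 (Ly6C-low monocyte), 50 (class II-high), 100 (granulocyte) or 30 (fibroblast); the limits were set after the data were seen, on marker histograms without heat shock values, and 11.5% of day 7 and 13.3% of steady-state cells lay within 1.5 times the classical monocyte limit. Cells passing no gate, or any combination of the macrophage, granulocyte and fibroblast gates, were left out of gate values. So were macrophage-gate cells that passed a monocyte but not the class II gate, and fibroblast-gate cells that passed a monocyte or class II gate. Granulocyte-lineage cells that passed a monocyte or class II gate were kept. Class II-high cells, with or without C1q, that passed a monocyte gate were kept as well. Counts were summed per gate and library and scaled to 1000000 (CPM).

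Intervals at 95% are Clopper-Pearson for shares, and exact Poisson, conditional on the summed count, for ratios (scipy 1.17.1); a count of 0 was set to 3. With 1 library per group no test was possible. Thinning drew 2000 UMIs per cell without replacement, dropping shallower cells. A gene counted as past 2-fold had at least 20 CPM in either library. Host-class and donor-class cells had at least 20 CD45.1 plus CD45.2 antibody counts, and posteriors of at least 0.95 and at most 0.05 for host origin in a mixture model (sklearn 1.9.0). The interval and fold calculations were tested on simulated data.

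The members, gene lists and comparisons were chosen with earlier results of these data known. Named list genes are the 3 highest and 3 lowest of each list in the macrophage and classical monocyte gates; where fewer are printed, the ends alone are given. Of 18 ER genes, 17 were found by symbol. Promoter windows came from RefSeq (GRCm38.p6), where Dnajb1, Hsph1 and Ubb have 2 entries each.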

Additional observations from a re-analysis of the deposited data

Results flagged for a closer look

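The day 7 ratios of 3 genes and of the Hspa1a and Hspa1b sum went opposite ways in macrophages and monocytes, with both intervals excluding no change; the differences between gates were not tested, since each gate has 1 sample per group. The log2 ratio in macrophages minus that in classical monocytes was 2.21 for Hspa1a, 3.03 for Hspa1b and 2.54 for their sum. Against Ly6C-low monocytes it was 4.12 for Hspa1a, 6.02 for Hspa1b and 4.91 for their sum, from 3 day 7 UMIs in those monocytes. Hspa5 went the other way, with a log2 ratio in macrophages minus that in classical monocytes of -0.55.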

How the results depend on the processing

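The log2 ratio of Hspa1a plus Hspa1b kept its direction under every alternative run. It ranged from -2.13 to -1.14 over 11 alternatives in classical monocytes and from 0.54 to 0.98 over 12 in macrophages. Of the 11 alternatives in Ly6C-low monocytes, those with day 7 UMIs left ranged from -5.11 to -3.22. Without the highest 5% of cells no day 7 UMIs were left there. The value of -2.91 for that setting is a bound from 3 counts, with its direction fixed in advance. Values outside the counting interval of the reported one were -1.14 with all gate limits halved (classical monocytes), and in macrophages 0.62 with equal weight per cell and 0.64 and 0.54 with cells thinned to 2000 UMIs in 2 random draws; the cause was not tested. The second draw and the host-class cells were chosen after seeing the data. Genes past 2-fold numbered 248 in classical monocytes, 831 in Ly6C-low monocytes and 160 in macrophages, and moved by over 1.5 times as follows, in that order of gates. With no minimum CPM they were 1895, 2073 and 2054, and with a minimum of 100 CPM 43, 144 and 13. Thinned cells gave 850, 1831 and 809, and in the second draw 786, 1794 and 788. Halved gate limits gave 1277 in Ly6C-low monocytes and 253 in macrophages, equal weight per cell 1351 and 317, and host-class macrophages alone 263. Single members reversed only for Dnajb1 in Ly6C-low monocytes (-0.08 with clusters in place of gates) and Hsph1 in classical monocytes (down to -0.55; 4 of 9 alternatives). No paired analysis was possible because each group has 1 library, and for the same reason no replicate could be left out. Low counts limit Hspa1a and Hspa1b in Ly6C-low monocytes, with 2 and 1 UMIs at day 7, and Hsph1 in macrophages, with 13.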

Other observations

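Barcodes over the 10% mitochondrial limit, which were left out of the values above, held the inducible pair and Ubb in another proportion than the cells kept. Those that passed the other filters had, over all gates, 160 CPM of Hspa1a plus Hspa1b at day 7 (11 UMIs in 56 cells; exact Poisson 95% interval 79.9 to 286) and 274 CPM at steady state (106 UMIs in 230 cells; 224 to 331), against 50.7 and 154 CPM in the cells kept. Ubb in the same barcodes was 131 CPM at day 7 (9 UMIs) and 708 CPM at steady state (274 UMIs), against 953 and 2266 CPM in the cells kept. These values pool all gates, whose mix was not matched between the barcodes over the limit and the cells kept. At steady state class II-high barcodes over the limit had 587 CPM of the pair (22 UMIs in 24 cells), against 156 CPM in those kept. Fibroblast-like ones had 508 CPM (10 UMIs in 8 cells), against 169 CPM kept. Macrophage barcodes over the limit were not higher, with 151 CPM (27 UMIs in 93 cells) against 174 CPM kept.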
